A study of Homo sapiens with 34 samples.

Results

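The second day of the standard paraxial mesoderm (PM) protocol was described from the 4 libraries of its start and end, of 34 in the whole series. The cells were of ESI017, an established human embryonic stem cell line, so that every value is from a single line. The first day was anterior primitive streak (APS) treatment, with activin at 30 ng/ml, bFGF at 20 ng/ml and the GSK3 inhibitor CHIR99021 at 4 µM for 24 h, which has 2 libraries. The 2 APS-PM libraries had the same first day and then a second day, to 48 h, in A-8301 at 1 µM, an inhibitor of the activin, Nodal and TGF-beta receptors, LDN-193189 at 250 nM, an inhibitor of BMP receptors, and bFGF at 20 ng/ml. The labels and the study's methods list no CHIR99021 for this second day, while its text describes Wnt activation there and a legend lists CHIR99021, so whether a GSK3 inhibitor was present is uncertain. Libraries from undifferentiated cells, labelled control and mTeSR Plus for 48 h, gave the background level of each gene. For comparison 2 other protocols were used. The endoderm protocol went from DE(a), with activin at 100 ng/ml and CHIR99021 at 2 µM, to DE(a)-DE(b), with activin at 100 ng/ml and LDN-193189 at 250 nM. The lateral mesoderm protocol went from mid primitive streak, MPS, with activin at 30 ng/ml, bFGF at 20 ng/ml, BMP-4 at 40 ng/ml and CHIR99021 at 6 µM, to MPS-LM, with BMP-4 at 30 ng/ml, A-8301 at 1 µM and the Wnt secretion inhibitor IWP2 at 4 µM. Each condition had 2 libraries. No library was kept in APS treatment until 48 h, so in this comparison the second day's medium and the passing of a day cannot be told apart. The series also holds APS-DE(b) and APS-LM libraries at 48 h, with the same first day and another second medium. They entered only the shared estimate of spread and were not compared here.

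Paraxial mesoderm is the tissue beside the neural tube that forms the somites, and from them vertebrae, skeletal muscle and dermis. Cells leave the primitive streak, where Nodal, Wnt and FGF signals keep *TBXT*, *MIXL1* and *EOMES* on, and become presomitic mesoderm, which is marked by *TBX6* and *MSGN1*. There an oscillator of Notch target genes, the segmentation clock, runs until cells form a somite, while HOX genes are turned on in the order of their place in each cluster and retinoic acid is made by the older cells.

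4 promoters are shown, for *MSGN1* and *HES7*, which are presomitic genes that rose on the second day, and for *CER1* and *CYP26A1*, which were among the genes that fell most. Each is the RefSeq sequence of GRCh38.p14 from 250 bases before to 50 bases after the start of transcription, printed 5′ to 3′ on the strand of the gene, with the matches to 1 short motif per promoter in capitals, searched on both strands. For *MSGN1*, at chr2:17816210-17816509 on the plus strand, the motif was the TCF/LEF core CTTTGA, which began at position -85 from the start and which 12.9% of 35116 promoters of this length hold.
MSGN1: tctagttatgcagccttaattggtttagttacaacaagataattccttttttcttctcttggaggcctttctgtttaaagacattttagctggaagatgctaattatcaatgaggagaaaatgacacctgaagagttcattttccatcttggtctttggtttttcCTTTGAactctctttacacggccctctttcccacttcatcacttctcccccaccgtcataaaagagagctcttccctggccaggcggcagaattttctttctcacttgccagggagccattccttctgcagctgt
For *HES7*, at chr17:8124057-8124356 on the minus strand, it was the N-box CACNAG, to which HES proteins bind, with a match on the opposite strand at position -115. The N-box is in 38.0% of promoters.
HES7: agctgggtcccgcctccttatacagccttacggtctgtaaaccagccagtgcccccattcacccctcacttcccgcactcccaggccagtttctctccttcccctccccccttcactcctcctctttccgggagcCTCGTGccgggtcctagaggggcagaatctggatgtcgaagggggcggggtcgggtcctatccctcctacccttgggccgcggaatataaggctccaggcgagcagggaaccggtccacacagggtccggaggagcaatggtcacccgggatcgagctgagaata
For *CER1*, at chr9:14722684-14722983 on the minus strand, the FOXH1 motif AATNNACA matched at position -154 and, on the opposite strand, at position -88. FOXH1 is the DNA-binding partner of the activin and Nodal effectors SMAD2 and SMAD3, and 11% of promoters hold the motif.
CER1: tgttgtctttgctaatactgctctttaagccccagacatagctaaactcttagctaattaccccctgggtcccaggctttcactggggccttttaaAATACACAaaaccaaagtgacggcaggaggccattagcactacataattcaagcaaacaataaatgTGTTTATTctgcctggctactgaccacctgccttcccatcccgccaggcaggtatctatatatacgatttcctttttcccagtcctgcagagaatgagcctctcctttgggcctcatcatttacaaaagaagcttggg
For *CYP26A1*, at chr10:93073643-93073942 on the plus strand, the direct repeat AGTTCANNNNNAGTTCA, of the kind bound by retinoic acid receptors, matched on the opposite strand at position -90, and 4 of the 35116 promoters (0.0114%) hold it. A second start of *CYP26A1*, with the promoter chr10:93073225-93073524, has no match to these letters.
CYP26A1: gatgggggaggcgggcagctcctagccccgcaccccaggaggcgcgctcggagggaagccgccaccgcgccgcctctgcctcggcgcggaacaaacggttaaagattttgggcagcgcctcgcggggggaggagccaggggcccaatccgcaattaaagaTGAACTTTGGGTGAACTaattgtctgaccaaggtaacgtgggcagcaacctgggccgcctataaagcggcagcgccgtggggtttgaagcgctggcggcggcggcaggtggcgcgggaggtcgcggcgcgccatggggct
A match is a description of the letters and was not tested for binding.

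Estimated counts were listed for 37951 gene identifiers, of which 17895 passed the filter on low counts and were tested. The 4 libraries held 20913478 to 23439799 estimated counts, and levels are given as CPM, the estimated counts scaled to a common total. Over 14647 genes, the distance between libraries in log2(CPM + 1) was 55.51 between the APS libraries, 58.16 between the APS-PM libraries, and 108.4 to 121.5 between an APS and an APS-PM library. The study calls the 2 libraries of a condition biological replicates, while the labels do not say whether they came from separate cultures, and a p-value measures only the spread between these samples. The 13 mitochondrial transcripts summed to 45670 and 76880 CPM in the APS libraries and to 47570 and 74080 CPM in the APS-PM libraries, higher in replicate 2 on both days. With edgeR 0 of the 13 were called, 0 had an unadjusted p under 0.05, and 0 were called with DESeq2.

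Between APS and APS-PM, 4492 genes were called by edgeR at a Benjamini-Hochberg adjusted p under 0.05, 25.1% of those tested. Of these 2126 were higher in APS-PM (11.9% of those tested) and 2366 were lower (13.2%). The groups did not overlap in 4475 of the 4492, and in 10428 of all 17895 tested genes (58.3%). A call favours genes whose groups lie apart, so that count is not separate support. Changes over 2-fold were frequent, with 1310 called genes higher and 1344 lower by more than 1 on the log2 scale, and 345 and 398 by at least 3. Protein-coding genes were called in 27.1% of 15816 tested, processed pseudogenes in 4.88% of 471. A log2 fold change is given as APS-PM over APS with its SE, and each p below is adjusted over all 17895 genes.

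**Figure D1:**
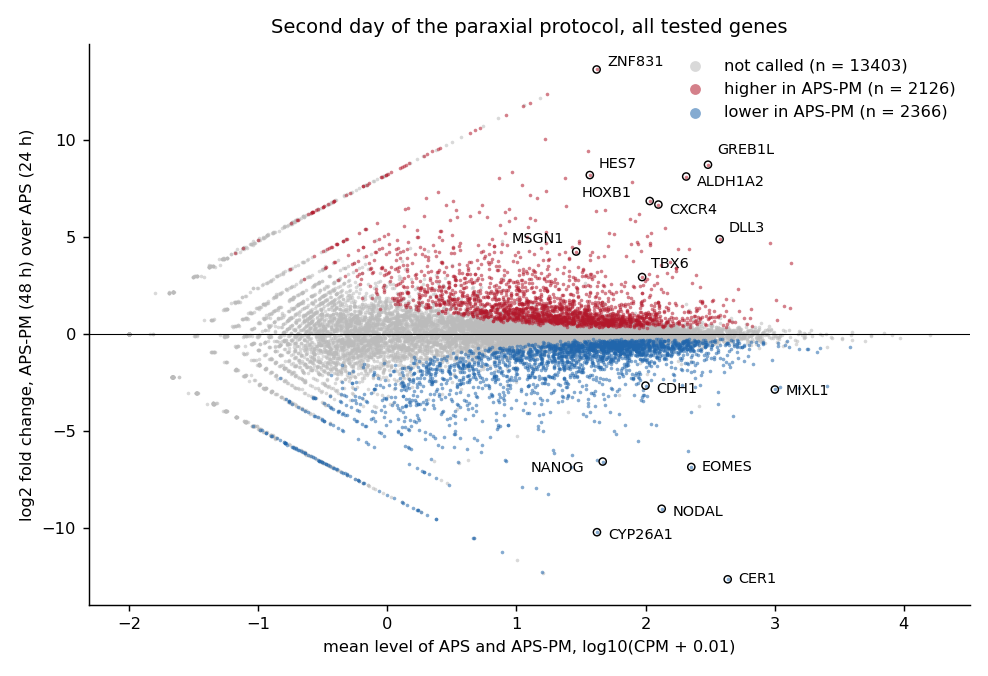
Fold change of each of the 17895 tested genes, as log2 of APS-PM at 48 h over APS at 24 h on the vertical axis, against its mean level as log10(CPM + 0.01) on the horizontal axis. Red points are the 2126 genes called higher in APS-PM, blue points the 2366 called lower and grey points the rest, and the outer straight lines of points are genes with 0 counts in one group. CER1 at -12.67, NODAL at -9.03 and HES7 at 8.17 stand far from 0 among genes of known role.

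The 10 genes with the largest rise among those called, averaging 10 CPM or more in either group and not overlapping between groups, held few genes with a known part in paraxial mesoderm. *ZNF831*, a zinc finger gene, was at 0 in both APS libraries and at 44.5 and 123 CPM in the APS-PM libraries, at least 599-fold higher when 3 counts per library stand for 0. *GREB1L*, a gene needed for kidney development, rose from 1.61 and 1.1 CPM to 498 and 716 CPM (log2 fold change 8.70 ± 0.59 SE, edgeR adjusted p = 2.82e-09). *KRT71*, a keratin of the hair follicle, was at 0 in APS and at 19.9 and 49.5 CPM in APS-PM, at least 249-fold higher. All 3 were at 0.479 CPM or less in the control libraries, and the lack of overlap between APS and APS-PM was a condition of their choice. *BMP3*, a BMP family member that opposes other BMPs, was at 0 in APS and at 6.86 and 26.3 CPM in APS-PM, at least 119-fold higher. The cholesterol transporter *ABCG1* was at 0.0946 and 0.0915 CPM and then at 94.1 and 49.5 CPM, a ratio of 758 (95% exact binomial counting interval 296 to 2780). *CPA1*, a carboxypeptidase of the pancreas, was at 0 and 0.0458 CPM and then at 45 and 21.5 CPM, a ratio of 1400 (counting interval 251 to 55400). These intervals cover counting error only. *ERICH3* was at 1.35 CPM in 1 APS-PM library and at 35.4 CPM in the other, so its size rests on APS-PM replicate 2. With DESeq2 the calls of *ZNF831* and *KRT71* were lost (adjusted p = 0.177 and 0.329). *HOXC4* is described with its family, and the other 2 of the 10, second identifiers of *DLL1* and *TCF19* that GENCODE release 44 does not list, share reads with other identifiers of the same symbol and are uncertain. Their calls were lost without APS replicate 1 (adjusted p = 0.120 for *DLL1* and 0.0910 for *TCF19*), APS replicate 2 (0.125 and 0.0945) or APS-PM replicate 1 (0.0554 and 0.253). Summed over 5 identifiers, *TCF19* was at 21.0 and 17.6 CPM in APS and at 31.7 and 34.3 CPM in APS-PM.

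The 10 genes with the largest fall included secreted factors of the streak. *CER1*, a secreted antagonist of Nodal, BMP and Wnt ligands, was at 1160 and 570 CPM in APS and at 0.287 and 0 CPM in APS-PM, a ratio of 6360 (counting interval 2920 to 17300). *NODAL*, the ligand of the streak and the node, fell from 292 and 240 CPM to 0.287 and 0.768 CPM (log2 fold change -9.03 ± 0.53, adjusted p = 3.13e-10). *NPPB*, a natriuretic peptide gene, was at 56.3 and 13.1 CPM and then at 0.191 and 0.0427 CPM, a ratio of 305 (counting interval 130 to 939). In each case both APS-PM libraries were below both APS libraries, which the choice of these genes required. APS-PM was also below the control level of *NODAL*, 10.3 and 12.1 CPM. *MYCT1* was at 30.4 and 32.2 CPM in APS and at 0 in both APS-PM libraries, at least 230-fold lower. *CD48*, a surface protein of blood cells, was at 20 and 24.2 CPM and then at 0.0956 and 0.0853 CPM, a ratio of 246 (counting interval 95.6 to 903). The pseudogene *HNRNPA1P66*, which shares sequence with *HNRNPA1*, was at least 114-fold lower and is uncertain. *CYP26A1*, *MESP1* and *EOMES* are described with their groups. *TRIM27* is uncertain, because its 7 identifiers summed to 117 and 123 CPM in APS and to 87.6 and 98.5 CPM in APS-PM, and its call was lost without any 1 of the 4 libraries (adjusted p = 0.0724 to 0.192).

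**Figure D2:**
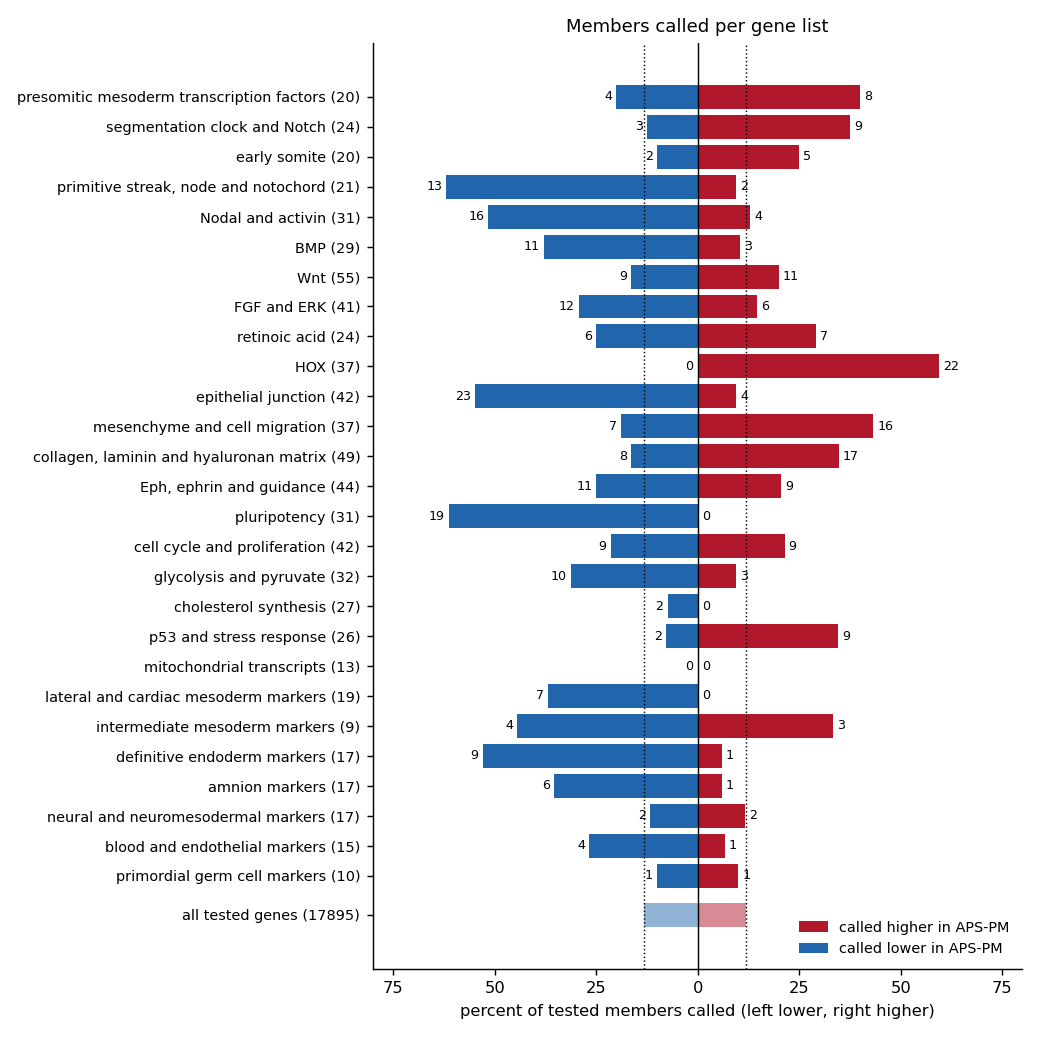
Share of the tested members of each of 27 gene lists that were called, in percent, with members called higher in APS-PM to the right in red and members called lower to the left in blue. Numbers at the bars are counts, the number in brackets is the number tested, and the dotted lines stand at the shares over all 17895 tested genes, 11.9% higher and 13.2% lower. HOX genes lie furthest to the right (22 of 37), and the streak, pluripotency, epithelial junction, endoderm and Nodal lists lie furthest to the left.

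The label was set beside markers, which were chosen with earlier results of these data known, so this is not an independent check. Of 10 markers of paraxial mesoderm, 7 were called higher in APS-PM (*TBX6*, *MSGN1*, *CDX2*, *DLL1*, *DLL3*, *HES7* and *MEOX1*), *MESP2* was called lower, and *TCF15* and *FOXC2* were not called. The call of *MEOX1* was lost with DESeq2 (adjusted p = 0.138). All 7 genes taken as markers of anterior streak (*TBXT*, *MIXL1*, *EOMES*, *GSC*, *LHX1*, *FOXH1* and *NODAL*) were called lower in APS-PM. Among them *TBXT* and *MIXL1* were also high in MPS, and *NODAL* was above its control level in MPS and DE(a) too. These genes are thus not particular to the anterior streak, and the others were not compared between streak types. Of the wider list of streak and node genes *CHRD* and *APLNR* were called higher, and 6 of 21 tested members were not called. *GSC* and *EOMES*, at 39.8 and 42.6 CPM and at 465 and 430 CPM in APS, were under 0.32 CPM in the control libraries. In bulk libraries, fewer cells of a type and less RNA per cell cannot be told apart, here and for every gene that follows.

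Transcription factors of the presomitic mesoderm changed in both directions. Of 20 tested members, 8 were called higher and 4 lower, with a median log2 fold change of 0.73, against a median of -0.01 over all tested genes. *MSGN1*, the basic helix-loop-helix factor that carries cells out of the streak, was at 2.65 and 2.84 CPM in the APS libraries and at 60.8 and 49.7 CPM in the APS-PM libraries (log2 fold change 4.23 ± 0.26, adjusted p = 1.85e-08). *TBX6*, the T-box factor that commits cells to paraxial mesoderm, was at 19.1 and 22.3 CPM and then at 163 and 171 CPM (2.91 ± 0.25, adjusted p = 3.63e-08). Both genes were therefore already above their control levels of 0 and of 1.72 and 0.585 CPM after the first day, and rose further on the second. *CDX2*, which gives posterior identity, was at 16.5 and 31.8 CPM and then at 166 and 194 CPM (2.80 ± 0.43, adjusted p = 5.96e-05). *FOXB1* (log2 fold change 3.28 ± 0.34), *GBX2* (2.77 ± 0.51) and *SALL1* (1.63 ± 0.17) rose as well, from 6.26 and 5.13, 7.72 and 6.82, and 108 and 146 CPM to 69.8 and 48.7, 40.4 and 66, and 447 and 400 CPM. *CDX1* was at 73.3 and 80 CPM in APS and at 164 and 190 CPM in APS-PM (1.11 ± 0.31, adjusted p = 0.0114), a call that was lost without APS replicate 1 (adjusted p = 0.0702) or without APS-PM replicate 2 (0.0756).

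*TBXT*, the streak factor that presomitic cells turn down as they mature, went the other way. It was at 571 and 716 CPM in APS and at 133 and 336 CPM in APS-PM (log2 fold change -1.56 ± 0.40, adjusted p = 0.00563), so that it stayed far above the control level of 0.0452 and 0.106 CPM, and the call was lost without APS-PM replicate 1 (-1.04, adjusted p = 0.106) and with only the 4 libraries in the fit (adjusted p = 0.0617). *MESP1*, which marks the first mesoderm to leave the streak and also the forming somite, was at 32 and 24.1 CPM and then at 0.143 and 0.0857 CPM, a ratio of 248 (counting interval 106 to 765). Its neighbour *MESP2*, which sets the somite boundary, was at 2.78 and 2.79 CPM and then at 0.191 and 0 CPM, a ratio of 31 (11.8 to 115). *MESP2* was not called without APS-PM replicate 2 (adjusted p = 0.0720), and *SP8* was not called without that library (0.175) or APS replicate 2 (0.111). *SP5*, a direct Wnt target, was at 334 and 382 CPM in APS and at 272 and 322 CPM in APS-PM and was not called (adjusted p = 0.388). *RIPPLY2*, which ends TBX6 activity at the somite boundary, was at 0.331 and 0.229 CPM and then at 3.16 and 0.0853 CPM, so that the 2 APS-PM libraries lay on either side of APS.

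Genes of the segmentation clock and the Notch pathway, in which a ligand on one cell activates a receptor on the next, rose more often than they fell. Of 24 tested members 9 were called higher and 3 lower, with a median log2 fold change of 1.17, and *MESP1* and *MESP2* are 2 of the 3. *HES7*, the repressor whose negative feedback makes the clock oscillate and whose promoter is shown above, was at 0.142 and 0.32 CPM in APS and at 85.7 and 61.9 CPM in APS-PM, a ratio of 314 (counting interval 171 to 656). *LFNG*, the glycosyltransferase that modulates the receptor in each cycle, was at 6.69 and 4.44 CPM and then at 174 and 121 CPM (log2 fold change 4.62 ± 0.37, adjusted p = 1.36e-08). *HES7* rose from near 0, whereas *LFNG* rose from under its control level of 21.2 and 15.6 CPM. Among the ligands, *DLL3* was at 28.6 and 17.9 CPM and then at 667 and 785 CPM (4.86 ± 0.39, adjusted p = 1.36e-08). *DLL1*, summed over its 2 identifiers, was at 7.6 and 8.79 CPM and then at 297 and 167 CPM. *JAG1* went from 28.5 and 29.9 CPM to 82.6 and 65.4 CPM (1.24 ± 0.16, adjusted p = 6.62e-06). The receptor *NOTCH1* rose from 110 and 146 CPM to 392 and 437 CPM (1.59 ± 0.23, adjusted p = 1.91e-05), while *NOTCH2* (0.24, adjusted p = 0.382) and *NOTCH3* (0.70, adjusted p = 0.0829) were not called.

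Of the effectors of the pathway, *HEYL* was at 1.94 and 2.29 CPM in APS and at 85.9 and 31.4 CPM in APS-PM (log2 fold change 4.68 ± 0.53, adjusted p = 1.05e-06). *HES6*, a partner that weakens HES1, was at 30.5 and 36.3 CPM and then at 102 and 206 CPM (2.10 ± 0.48, adjusted p = 0.00228), a call lost without APS-PM replicate 2 (adjusted p = 0.0547). *HES1*, the general Notch effector, fell from 21.8 and 29.3 CPM to 5.14 and 1.49 CPM (-3.05 ± 0.59, adjusted p = 0.000514), with both APS-PM libraries also below the control level of 7.77 and 7.23 CPM. HES genes thus moved in both directions in the same libraries. *NRARP*, a feedback target of Notch, was at 8.56 and 8.91 CPM and then at 29.8 and 10.5 CPM and was not called (adjusted p = 0.0611).

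**Figure D3:**
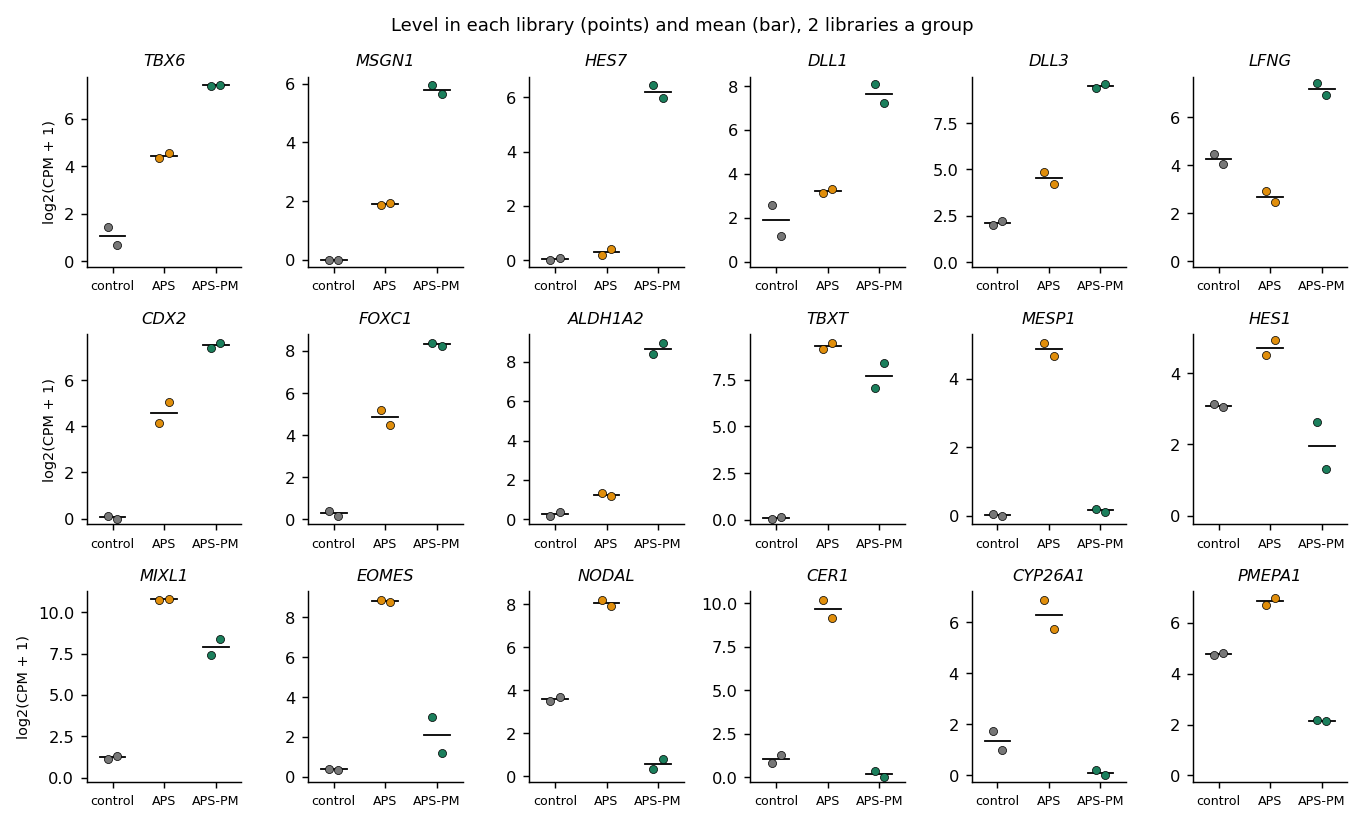
Level of 18 genes as log2(CPM + 1) in each of the 2 libraries of control, APS at 24 h and APS-PM at 48 h. Points are libraries and the bar is their mean. DLL1 is drawn from a single identifier, not from the sum of its identifiers. TBX6, MSGN1, CDX2, FOXC1, DLL1, DLL3, HES7 and ALDH1A2 are highest in APS-PM, and MIXL1, EOMES, NODAL and CER1 are highest in APS.

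Genes of the formed somite were mostly low. Of 20 tested members of this list 5 were called higher and 2 lower, with a median log2 fold change of 0.31. The shares over all tested genes were 11.9% higher and 13.2% lower. In both APS-PM libraries 12 of 23 members were under 1 CPM. *FOXC1*, a forkhead factor that somites need, was at 35.9 and 21.5 CPM in APS and at 335 and 298 CPM in APS-PM (log2 fold change 3.36 ± 0.34, adjusted p = 2.08e-07). *TWIST1*, a mesenchymal factor of the sclerotome, was at 2.74 and 1.65 CPM and then at 14.9 and 9.86 CPM (2.39 ± 0.50, adjusted p = 0.00108). *TBX15* was at 0.237 and 0.183 CPM and then at 3.6 and 5.33 CPM, a ratio of 21.5 (counting interval 11.1 to 47.8). *FOXC1* alone of these 3 reached 100 CPM. *MEOX1*, an early somite homeobox gene, was at 0.0473 and 0 CPM and then at 2.49 and 0.768 CPM, and *PAX3*, of the dermomyotome, at 0 and 0.275 CPM and then at 1.53 and 1.28 CPM. *TCF15*, a marker of the epithelial somite, was at 2.66 and 2.58 CPM and then at 2.23 and 1.15 CPM (adjusted p = 0.424), and *PAX1*, *UNCX* and *MYF5* were at 0.137 CPM or less in every APS and APS-PM library and were not tested. *EYA1* fell from 10.2 and 5.9 CPM to 2.27 and 1.19 CPM (-2.33 ± 0.53, adjusted p = 0.0024). The call of *MEOX1* was lost with DESeq2 (adjusted p = 0.138) and without APS replicate 1 (adjusted p = 0.0921), APS replicate 2 (0.177) or APS-PM replicate 1 (0.133), that of *PAX3* without APS replicate 1 (0.0858) and that of *EYA1* without APS-PM replicate 2 (0.0530). Without APS replicate 1, 3 members were called higher.

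HOX genes of the lower paralog groups rose. Of 37 tested genes 22 were called higher and 0 lower by edgeR, where 1 was lower at an unadjusted p under 0.05 and 0 were called lower by DESeq2, with a median log2 fold change of 3.76. All 15 genes of paralog groups 1 to 5, at the end of each cluster that is turned on first, were called higher, as were 7 of the 12 genes of groups 6 to 9 but 0 of the 10 tested of groups 10 to 13, where 0 were higher at an unadjusted p under 0.05 and 0 with DESeq2. Genes of groups 10 to 13 were at 0.469 CPM or less in APS-PM. By cluster, 6 of 11 *HOXA*, 9 of 10 *HOXB*, 3 of 7 *HOXC* and 4 of 9 *HOXD* genes were called higher. *HOXB1*, in group 1, was at 1.66 and 1.83 CPM in APS and at 192 and 235 CPM in APS-PM (log2 fold change 6.83 ± 0.57, adjusted p = 3.19e-08). *HOXB3* was at 3.83 and 7.19 CPM and then at 163 and 264 CPM (5.17 ± 0.50, adjusted p = 1.33e-07). Both were under 10 CPM after the first day and over 100 CPM after the second.

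Further along the clusters, *HOXB5* was at 0.189 and 0.183 CPM in APS and at 30.5 and 36.5 CPM in APS-PM, a ratio of 181 (counting interval 91.7 to 420). *HOXB9* was at 1.66 and 2.7 CPM and then at 20.3 and 45.3 CPM (log2 fold change 3.81 ± 0.76, adjusted p = 0.000844). *HOXC4* was at 0 in both APS libraries and at 11.8 and 38.9 CPM in APS-PM, at least 181-fold higher. The cluster *HOXB* was thus on as far as group 9, while *HOXA9* was at 0 in both APS-PM libraries and *HOXD9* at 0.0478 and 0.0853 CPM. *HOXC5* (at least 62.8-fold) and *HOXA7* (at least 31.9-fold) were also at 0 in APS, and were at 3.02 and 14.5 CPM and at 1.25 and 7.66 CPM in APS-PM. In *HOXC4*, *HOXC5* and *HOXA7* the level of APS-PM replicate 2 was over 3 times that of APS-PM replicate 1. The call of *HOXA2* was lost without APS replicate 1 (adjusted p = 0.0945) and that of *HOXC6* without APS replicate 2 (0.209) or APS-PM replicate 2 (0.181). In APS the largest level in groups 10 to 13 was 0.899 CPM, so a fall in that group was not detectable at this depth for most of its members.

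**Figure D4:**
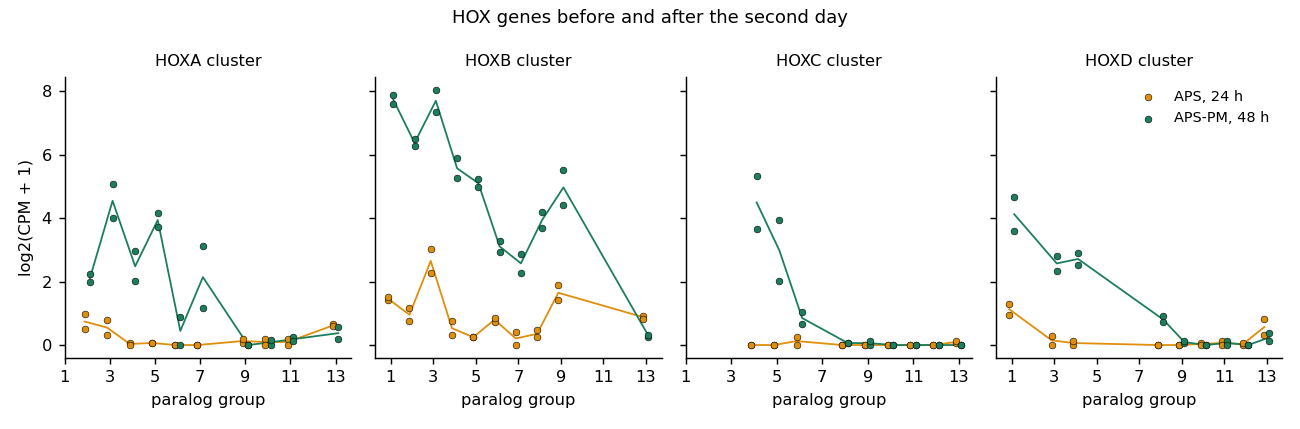
Level of the HOX genes shown as log2(CPM + 1) by paralog group in the 4 clusters, with APS at 24 h in orange and APS-PM at 48 h in green, points for the 2 libraries of each and lines through their means. The green lines lie above the orange ones from group 1 to group 5 in every cluster with such genes, the HOXB line stays up to group 9, and both colours lie near 0 from group 10 on.

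Retinoic acid genes changed in both directions, and so did the enzymes for synthesis and the receptors. Of 24 tested genes 7 were called higher and 6 lower, with a median log2 fold change of 0.29. *ALDH1A2*, the enzyme that makes retinoic acid in paraxial mesoderm, was at 1.51 and 1.28 CPM in APS and at 327 and 495 CPM in APS-PM (log2 fold change 8.09 ± 0.61, adjusted p = 7.9e-09). *STRA6*, the receptor that takes up retinol, was at 12.4 and 18.5 CPM and then at 221 and 463 CPM (4.36 ± 0.37, adjusted p = 2.37e-08). *CYP26A1*, the enzyme that breaks retinoic acid down, was at 116 and 52.1 CPM and then at 0.143 and 0 CPM, a ratio of 1230 (counting interval 422 to 5990). *ALDH1A2* was thus low in APS, though above its control level of 0.135 and 0.319 CPM, and over 300 CPM in APS-PM. *CYP26A1* went below its control level of 2.3 and 1.01 CPM. Of the other retinaldehyde dehydrogenases, both fell, *ALDH1A3* from 10.3 and 8.11 CPM to 2.4 and 1.28 CPM (-2.43 ± 0.55, adjusted p = 0.00234) and *ALDH1A1* from 0.52 and 1.05 CPM to 0 in both libraries, at least 5.8-fold lower. The carrier *CRABP2* (169 and 112 to 419 and 338 CPM, 1.33 ± 0.26) and the receptor *RARG* (27.3 and 25.8 to 57.3 and 54.7 CPM, 0.97 ± 0.13) rose. The receptor *RARA* fell from 27.2 and 33.7 CPM to 17 and 14.7 CPM (-1.05 ± 0.21, adjusted p = 0.000852). *MEIS1* and *MEIS2*, homeobox partners of HOX proteins, were at 0.284 and 0.595 CPM and at 1.56 and 0.87 CPM in APS, and at 22 and 32.4 CPM (5.83 ± 0.59) and 27.8 and 12 CPM (3.92 ± 0.68) in APS-PM. *RARB*, a direct target of retinoic acid receptors, was at 0.284 and 0.32 CPM and then at 0.526 and 0.299 CPM and was not called (adjusted p = 0.826), and *DHRS3*, another such target, was at 1.49 and 0.824 CPM and then at 0.813 and 1.83 CPM (adjusted p = 0.959).

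Genes of the streak and the node fell. Of 21 tested members 13 were called lower and 2 higher, with a median log2 fold change of -2.28. *MIXL1*, a homeobox factor of the streak, was at 1745 and 1755 CPM in APS and at 172 and 336 CPM in APS-PM (log2 fold change -2.89 ± 0.43, adjusted p = 2.74e-05). *EOMES*, the T-box factor of mesendoderm, was at 465 and 430 CPM and then at 6.93 and 1.32 CPM (-6.88 ± 0.74, adjusted p = 5.11e-07). *GSC*, of the organizer, was at 39.8 and 42.6 CPM and then at 3.96 and 3.86 CPM (-3.50 ± 0.34, adjusted p = 1.27e-07). *MIXL1* kept a level far above its control value of 1.22 and 1.49 CPM, while *EOMES*, at 6.93 and 1.32 CPM, was low but still above its own. *LHX1*, summed over 2 identifiers, fell from 61.7 and 25.4 CPM to 1.05 and 0.299 CPM. The BMP antagonist *CHRD* rose from 0.52 and 0.504 CPM to 9.47 and 11.5 CPM (4.24 ± 0.49, adjusted p = 1.46e-06), and the apelin receptor gene *APLNR* was at 417 and 303 CPM and then at 1187 and 700 CPM (1.28 ± 0.37, adjusted p = 0.0134). *FOXA2*, of node and endoderm, was at 0.426 and 0.595 CPM and then at 1.53 and 0.171 CPM and was not called. The call of *APLNR* was lost without APS replicate 2 (adjusted p = 0.124) or APS-PM replicate 1 (0.176), and that of *FOXH1* without APS replicate 1 (0.0749), APS replicate 2 (0.156) or APS-PM replicate 1 (0.305).

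In the Nodal and activin pathway, ligands, the co-receptor and feedback targets fell. Of 31 tested members 16 were called lower and 4 higher, with a median log2 fold change of -1.57. *TDGF1*, the co-receptor of Nodal, was at 484 and 356 CPM in APS and at 8.22 and 5.28 CPM in APS-PM (log2 fold change -6.06 ± 0.48, adjusted p = 1.25e-08). The feedback antagonists *LEFTY1* and *LEFTY2* were at 9.58 and 8.68 CPM and at 11.4 and 9.54 CPM in APS, and at 0.327 and 0.128 CPM and at 0.104 and 0.213 CPM in APS-PM, ratios of 40.4 (counting interval 21.8 to 85) and 66.2 (31.9 to 166). *GDF3*, a ligand related to Nodal, was at 12.6 and 8.56 CPM and then at 0.335 and 0.0853 CPM, a ratio of 51.9 (27.1 to 114). All 4 were below their control levels in APS-PM.

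Direct targets of SMAD2 and SMAD3 fell too. *PMEPA1*, an inhibitor of the pathway that the pathway itself turns on, was at 102 and 126 CPM in APS, at 3.49 and 3.37 CPM in APS-PM (log2 fold change -5.16 ± 0.24, adjusted p = 1.02e-11) and at 25.9 and 27.4 CPM in control. *SMAD7*, the inhibitory SMAD, was at 60.6 and 70.8 CPM and then at 4.49 and 2.86 CPM (-4.27 ± 0.23, adjusted p = 1.01e-10). *SKIL*, a corepressor of SMAD proteins, was at 152 and 182 CPM and then at 14.2 and 19.5 CPM (-3.41 ± 0.21, adjusted p = 6.58e-10). In each of the 3 the APS-PM libraries lay below control as well as below APS. *SMAD3* itself fell from 75.4 and 88.1 CPM to 17.3 and 17 CPM (-2.35 ± 0.19, adjusted p = 1.3e-08), while *SMAD2* was at 69.4 and 69.2 CPM and then at 71.8 and 77.9 CPM (0.01 ± 0.12, adjusted p = 0.986). Among receptors, *ACVR1B* (adjusted p = 0.736) and *ACVR2B* (0.202) were not called, *ACVR2A* was called lower (-0.98 ± 0.22) and *TGFBR1* higher (0.60 ± 0.17). Of the 4 called higher *LTBP1* kept its call without each library in turn, whereas *INHBA* lost it without APS replicate 2 (adjusted p = 0.0642), *TGFBR1* without APS replicate 1 (0.0677) or APS-PM replicate 2 (0.138) and *TGFBR2* without any 1 of the 4 libraries (0.0734 to 0.181), and *ACVR2A* lost its call without APS-PM replicate 2 (0.0535).

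BMP pathway genes fell more often than they rose. Of 29 tested members 11 were called lower and 3 higher, with a median log2 fold change of -0.83. *BMP2*, a ligand, was at 424 and 425 CPM in APS and at 25.2 and 29.3 CPM in APS-PM (log2 fold change -4.07 ± 0.31, adjusted p = 8.15e-09), while *BMP4*, another ligand, was at 40 and 27.5 CPM and then at 63.2 and 70 CPM (0.88 ± 0.35, adjusted p = 0.0703). *ID1*, a direct target of *SMAD1* and *SMAD5*, fell from 73.5 and 55.7 CPM to 10.4 and 3.29 CPM (-3.35 ± 0.52, adjusted p = 4.45e-05). *ID2* fell from 53 and 38.5 CPM to 13 and 11.5 CPM (-2.01 ± 0.27, adjusted p = 9.98e-06). *ID3* was at 123 and 76.8 CPM and then at 182 and 92 CPM (0.35 ± 0.39, adjusted p = 0.566), and was not called. The pseudoreceptor *BAMBI* (154 and 114 to 36.3 and 33.1 CPM, -2.05 ± 0.28), the inhibitory *SMAD6* (36.9 and 47.7 to 15 and 19.3 CPM, -1.40 ± 0.22) and the homeobox target *MSX2* (39.6 and 30.5 to 13.3 and 9.17 CPM, -1.74 ± 0.33) fell, while *MSX1*, at 136 and 136 CPM and then at 103 and 93.7 CPM, was not called (adjusted p = 0.278). Besides *CHRD*, described above, the extracellular modulator *TWSG1* (78 and 70.9 to 146 and 175 CPM, 1.01 ± 0.24) and the ligand *BMP5* (0.804 and 1.24 to 8.83 and 4.76 CPM, 2.63 ± 0.62) rose.

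Wnt pathway genes moved in both directions, and several general targets of the pathway did not pass the test. Of 55 tested members 11 were called higher and 9 lower, with a median log2 fold change of 0.04. Over all tested genes 11.9% were called higher and 13.2% lower. *AXIN2*, the target most often used as a readout of beta-catenin signaling, was at 265 and 398 CPM in APS and at 170 and 296 CPM in APS-PM (log2 fold change -0.61 ± 0.31, adjusted p = 0.173), against 45.7 and 39.2 CPM in control, and the sources differ on CHIR99021 in the second day. *NKD1*, a feedback inhibitor, was at 454 and 672 CPM and then at 438 and 1084 CPM (0.33 ± 0.43, adjusted p = 0.64). *DKK4*, another feedback inhibitor, was at 603 and 350 CPM and then at 1.5 and 73.7 CPM and was not called (adjusted p = 0.11), as its 2 APS-PM libraries lay far apart. APS and APS-PM overlapped in *AXIN2* and *NKD1*, and both days stood well above control.

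Wnt ligand and receptor genes changed in both directions. *WNT3A*, the ligand of the posterior presomitic mesoderm, was at 12.1 and 16.2 CPM in APS and at 56.4 and 59.9 CPM in APS-PM (log2 fold change 1.93 ± 0.35, adjusted p = 0.000266). *WNT8A* was at 1.14 and 3.25 CPM and then at 41.1 and 12.9 CPM (3.51 ± 0.74, adjusted p = 0.00125). *WNT3*, the ligand that starts the streak, fell when summed over 3 identifiers from 121 and 139 CPM to 16 and 11.3 CPM (-3.35 in the fit on summed counts, adjusted p = 1.18e-08). The *WNT3* and *WNT3A* ligand genes thus moved in opposite directions. Of the receptors, *FZD10* was at 4.12 and 7.32 CPM and then at 135 and 263 CPM (5.02 ± 0.55, adjusted p = 7.41e-07) and *FZD2* at 21.2 and 17.6 CPM and then at 97.5 and 78 CPM (2.07 ± 0.34), whereas *FZD5* went from 39.8 and 50.4 CPM to 5.01 and 5.3 CPM (-3.23 ± 0.28, adjusted p = 3.63e-08) and *FZD4* from 32 and 47.8 CPM to 13.1 and 11.1 CPM (-1.82 ± 0.28). *RSPO3*, which amplifies Wnt signals, rose from 82.5 and 75 CPM to 464 and 433 CPM (2.41 ± 0.43, adjusted p = 0.000251). The nuclear effector *LEF1* rose from 107 and 142 CPM to 401 and 445 CPM (1.66 ± 0.29, adjusted p = 0.000212), while its relative *TCF7* was at 146 and 199 CPM and then at 81.2 and 125 CPM (-0.85 ± 0.26, adjusted p = 0.0191), a call lost without APS replicate 2 (0.194) or APS-PM replicate 1 (0.223).

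FGF and ERK pathway genes fell more often than they rose. Of 41 tested members 12 were called lower and 6 higher, with a median log2 fold change of -0.26. The shares over all tested genes were 13.2% lower and 11.9% higher. *FGF8* and *FGF17*, ligands of streak and presomitic mesoderm, were at 16 and 16.6 CPM and at 296 and 259 CPM in APS, and at 4.63 and 21.6 CPM and at 54.9 and 143 CPM in APS-PM, and neither was called (adjusted p = 0.738 and 0.0683). *FGF4* was at 68.3 and 70.6 CPM and then at 5.69 and 3.32 CPM (log2 fold change -4.05 ± 0.37, adjusted p = 5.71e-08). *FGF9* was at 0.0473 and 0.137 CPM and then at 5.8 and 15.5 CPM, a ratio of 118 (counting interval 45.6 to 433). The level of *FGF4* in APS-PM was near its control level of 3.48 and 5.48 CPM. The receptor *FGFR1* rose from 162 and 209 CPM to 387 and 336 CPM (0.86 ± 0.20, adjusted p = 0.00286) and *FGFR2* fell from 21.4 and 20.4 CPM to 7.33 and 4.53 CPM (-1.93 ± 0.36, adjusted p = 0.000352). Of the phosphatases that limit ERK, *DUSP6* was at 81.4 and 46.2 CPM and then at 204 and 175 CPM (1.47 ± 0.39, adjusted p = 0.00761), and *DUSP4* went from 47.4 and 35.3 CPM to 13.8 and 13.4 CPM (-1.71 ± 0.28, adjusted p = 8.75e-05). The targets *ETV4* (adjusted p = 0.56), *SPRY2* (0.394) and *SPRY4* (0.503) were not called and *ETV5* was called higher (20.7 and 14.8 to 64.1 and 95.5 CPM, 2.06 ± 0.39). *PDGFRA*, a receptor of presomitic mesoderm, was at 60.5 and 31.5 CPM and then at 156 and 122 CPM (1.49 ± 0.42, adjusted p = 0.0115), a call lost without APS replicate 2 (0.147) or APS-PM replicate 1 (0.0713), and *DUSP6* lost its call without APS replicate 2 (0.111), where 3 members of the list were called higher.

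Many epithelial junction genes fell while part of the mesenchymal genes rose. The epithelial list summed to 4708 and 4408 CPM in APS and to 4393 and 4792 CPM in APS-PM, so its total did not fall. Of 42 tested members of the epithelial list 23 were called lower and 4 higher, with a median log2 fold change of -1.07. *CDH1*, which encodes E-cadherin, was at 149 and 194 CPM in APS and at 35 and 22.2 CPM in APS-PM (log2 fold change -2.69 ± 0.28, adjusted p = 2.77e-07), from 303 and 299 CPM in control. *EPCAM*, an epithelial adhesion molecule, fell from 130 and 136 CPM to 40.2 and 24.5 CPM (-2.15 ± 0.27, adjusted p = 4.63e-06). *ESRP1*, which controls epithelial splicing, fell from 105 and 103 CPM to 13.3 and 11.8 CPM (-3.15 ± 0.28, adjusted p = 4.75e-08). All 3 stepped down on both days. *CRB3*, a polarity protein, was at 3.88 and 4.71 CPM and then at 0.478 and 0.171 CPM, a ratio of 13.6 (counting interval 7.92 to 25.4). *ESRP2* (-3.41 ± 0.43), *GRHL2* (-3.17 ± 0.44), *PKP2* (-2.63 ± 0.23), *CLDN7* (-2.42 ± 0.29) and *CDH3* (-2.07 ± 0.20) fell as well. The desmosome gene *DSP* went the other way, from 371 and 527 CPM to 1267 and 1924 CPM (1.73 ± 0.27, adjusted p = 6.31e-05), and the keratins *KRT8* (adjusted p = 0.384) and *KRT18* (0.698) were not called.

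Of 37 tested members of the mesenchymal and migration list 16 were called higher and 7 lower, with a median log2 fold change of 0.35. *CDH2*, which encodes N-cadherin, was at 529 and 555 CPM in APS and at 524 and 450 CPM in APS-PM (log2 fold change -0.26 ± 0.15, adjusted p = 0.224), against 46.9 and 48.2 CPM in control. *SNAI1*, a repressor of *CDH1*, was at 48.7 and 49.4 CPM and then at 58 and 68.5 CPM (0.26 ± 0.23, adjusted p = 0.461). *SNAI2*, its relative, rose from 12 and 6.92 CPM to 67.3 and 45.8 CPM (2.48 ± 0.48, adjusted p = 0.000478). *CDH2* and *SNAI1* thus stood above control on both days, with the larger step between control and APS. *ZEB1* and *ZEB2*, further repressors of epithelial genes, rose from 2.7 and 3.11 CPM and from 32.8 and 26.5 CPM to 15.9 and 18.3 CPM (2.45 ± 0.28) and 102 and 131 CPM (1.88 ± 0.38). Another cadherin, *CDH11*, rose from 168 and 160 CPM to 785 and 964 CPM (2.31 ± 0.38, adjusted p = 0.000106). *CXCR4*, a chemokine receptor also used as an endoderm marker, was at 2.79 and 1.83 CPM and then at 232 and 266 CPM (6.65 ± 0.68, adjusted p = 2.77e-07). *VIM*, the intermediate filament of mesenchyme, was at 881 and 542 CPM and then at 2045 and 1821 CPM (1.34 ± 0.32, adjusted p = 0.00359), a call lost without APS replicate 2 (1.04, adjusted p = 0.0717). *ADAM19*, a metalloprotease, fell from 596 and 746 CPM to 62 and 53.8 CPM (-3.64 ± 0.21, adjusted p = 2.86e-10), and the actin-binding *TAGLN* from 796 and 476 CPM to 205 and 139 CPM (-1.99 ± 0.33).

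Matrix genes rose in 17 of 49 tested members and fell in 8, with a median log2 fold change of 0.29. The shares over all tested genes were 11.9% higher and 13.2% lower. The basement membrane linkers *NID2* and *NID1* rose from 2.33 and 2.32 CPM and from 34 and 31.5 CPM to 152 and 200 CPM (log2 fold change 6.14 ± 0.52, adjusted p = 2.37e-08) and 144 and 254 CPM (2.50 ± 0.32, adjusted p = 4.94e-06). The small proteoglycan *BGN* rose from 3.56 and 2.29 CPM to 135 and 88.3 CPM (5.15 ± 0.48, adjusted p = 9.61e-08). *COL3A1*, a fibrillar collagen, was at 0.142 and 0.183 CPM and then at 20.9 and 30.1 CPM, a ratio of 158 (counting interval 76.5 to 394). These genes were low in APS in both libraries. *COL1A2* rose from an already higher level, 580 and 642 CPM, to 1638 and 1821 CPM (1.40 ± 0.26, adjusted p = 0.000304), and the fibrillin *FBN1* from 17.5 and 17.7 CPM to 111 and 130 CPM (2.67 ± 0.28). *COL6A1* fell from 782 and 1206 CPM to 372 and 334 CPM (-1.60 ± 0.23, adjusted p = 2.54e-05) while *COL6A3*, a chain of the same collagen, rose from 3.88 and 3.43 CPM to 47.9 and 37.7 CPM (3.44 ± 0.56). Laminin chains *LAMB1* (adjusted p = 0.996) and *LAMC1* (0.403) were not called.

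Pluripotency genes fell in 19 of 31 tested members and the others were not called, with a median log2 fold change of -1.46. *NANOG*, a core factor, was at 171 and 188 CPM in control, 103 and 81.1 CPM in APS and 1.96 and 0.144 CPM in APS-PM (log2 fold change -6.60 ± 0.61, adjusted p = 1.22e-07). *POU5F1*, summed over 4 identifiers because its copies share reads, was at 1625 and 1348 CPM in control, 683 and 644 CPM in APS and 167 and 141 CPM in APS-PM. *SOX2* had fallen already, from 331 and 278 CPM in control to 6.59 and 3.99 CPM in APS and 3.68 and 0.854 CPM in APS-PM, and its second day was not called (adjusted p = 0.198). *SOX2* was thus near its APS-PM level a day before the other core factors. The RNA-binding *L1TD1* fell from 556 and 719 CPM to 76.4 and 92.3 CPM (-3.02 ± 0.23, adjusted p = 8e-09) and the DNA methyltransferase *DNMT3B* from 557 and 647 CPM to 258 and 211 CPM (-1.46 ± 0.17, adjusted p = 1.95e-06). *LIN28A*, at 1330 and 1510 CPM and then at 1099 and 891 CPM (-0.62 ± 0.16, adjusted p = 0.00645), lost its call without APS replicate 2 (0.0762) or APS-PM replicate 2 (0.108).

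Markers of endoderm, of lateral and cardiac mesoderm and of amnion were called lower more often than higher. Of 17 tested endoderm markers 9 were called lower and 1, *CXCR4*, higher, with a median log2 fold change of -2.08, and the list summed to 2735 and 1972 CPM in APS and to 507.9 and 607.5 CPM in APS-PM. *CER1* and *EOMES*, which are also on the streak list, made up much of the APS sum, and *FOXA1* and *FOXA2* were not called. *GATA6*, of endoderm and heart, fell from 230 and 236 CPM to 13 and 6.27 CPM (log2 fold change -4.70 ± 0.35, adjusted p = 6e-09). *SOX17*, a defining endoderm factor, was at 8.62 and 1.79 CPM and then at 2.44 and 0.213 CPM (adjusted p = 0.209). Of 19 lateral and cardiac markers 7 were called lower and 0 higher by edgeR, where 2 were higher at an unadjusted p under 0.05 and DESeq2 called 2, with a median of -1.21 and a sum of 351.6 and 381.9 CPM in APS and 243.2 and 174.6 CPM in APS-PM. Without 1 library at a time 3 to 5 lateral markers were called lower, with 3 without APS replicate 1, 4 without APS replicate 2 and 3 without APS-PM replicate 2. *KDR*, a receptor of lateral and endothelial cells, fell from 134 and 197 CPM to 31.3 and 16.7 CPM (-2.89 ± 0.47, adjusted p = 7.66e-05), and *HAND1*, at 8.34 and 4.71 CPM and then at 3.71 and 2.35 CPM, was not called (adjusted p = 0.131). *HAND2*, *NKX2-5* and *TBX5* were under 1 CPM in both APS-PM libraries.

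Of 17 amnion markers 6 were called lower and 1, *CDX2*, higher, with a median of -1.21 and a sum of 584.0 and 489.0 CPM in APS and 347.9 and 369.7 CPM in APS-PM. *TFAP2A*, a defining amnion factor, was at 0.615 and 1.2 CPM and then at 0.239 and 0.427 CPM. Of 17 neural markers 2 were called each way, with a median of -0.14 and a sum of 476.7 and 462.2 CPM in APS and 392.7 and 303.4 CPM in APS-PM, and *PAX6* was at 0 in all 4 libraries. Of those calls *SIX3* (lower) was lost without any 1 of the 4 libraries (adjusted p = 0.0522 to 0.157) and *POU3F2* (higher) without APS replicate 1 (0.121), APS replicate 2 (0.0833) or APS-PM replicate 1 (0.172). The blood and endothelial list had 4 of 15 lower and 1, *LMO2*, higher, with a median of 0.49 and a sum of 197.3 and 258.3 CPM in APS and 110.4 and 131.7 CPM in APS-PM. By edgeR 5 of its members were higher and 5 lower at an unadjusted p under 0.05. *LMO2* rose from 5.21 and 14.8 CPM to 40.1 and 83.5 CPM (2.52 ± 0.55, adjusted p = 0.00165). Germ cell markers had 1 of 10 called each way, with a median of -1.26 and a sum of 353.3 and 349.9 CPM in APS and 287.8 and 274.2 CPM in APS-PM, and the higher one, *DAZL*, lost its call without any 1 of the 4 libraries (adjusted p = 0.0873 to 0.179). Intermediate mesoderm markers had 3 of 9 higher and 4 lower, with a median of -0.34, and their sum went from 134.5 and 165.7 CPM to 482.9 and 445.8 CPM. Most of that sum is *SALL1*, also a member of the presomitic list, at 108 and 146 CPM and then at 447 and 400 CPM, while *LHX1*, *WT1*, *GATA3* and *EYA1* were called lower. *OSR1*, an early gene of this lineage, was at 0.142 and 0.275 CPM and then at 26.5 and 31.1 CPM, a ratio of 138 (counting interval 72.6 to 303), whereas *PAX8* was at 1.14 and 2.93 CPM and then at 1.1 and 2.35 CPM. The part that such cells have in the changes described was not tested.

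The change was also compared with that in the endoderm and lateral protocols by an interaction term in the same fit. No library is shared between the protocols compared. These protocols differ in the first day as well as the second, so an interaction cannot tell the starting level from the second medium. Other first days followed by the paraxial second medium were not compared. The change was higher in the paraxial protocol than in the endoderm protocol for 823 genes (4.6% of those tested) and lower for 1314 (7.34%), 2137 in all (11.9%). Against the lateral protocol it was higher for 1087 genes (6.07%) and lower for 884 (4.94%), 1971 in all (11%). These tests use the same APS and APS-PM libraries as the comparison above and as each other, so their values are set side by side.

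The presomitic genes differed from both other protocols. Of 20 tested members the change was higher than in the lateral protocol for 15 and than in the endoderm protocol for 11, and the other members were not called. *TBX6* rose by 2.91 on the log2 scale in the paraxial protocol, while it went from 38.8 and 36.3 CPM to 3.57 and 1.66 CPM in the lateral protocol (interaction 6.80 ± 0.38, adjusted p = 1.72e-10) and from 5.76 and 5.54 CPM to 2.27 and 1.92 CPM in the endoderm protocol (4.41 ± 0.39, adjusted p = 7.34e-08). *MSGN1* was at 52.5 and 60.4 CPM in MPS, above the 2.65 and 2.84 CPM of APS, and at 0 in both MPS-LM libraries, so that the size of its interaction depends on the prior count. *TBXT* fell far more in the lateral protocol, from 920 and 1152 CPM to 0.291 and 0.569 CPM (interaction 9.62 ± 0.74, adjusted p = 7.77e-09). The same held for *MIXL1*, from 1796 and 1658 CPM to 0.814 and 2.76 CPM (6.99 ± 0.66, adjusted p = 1.44e-07). Both streak factors were thus under 3 CPM in MPS-LM and over 100 CPM in APS-PM. In the endoderm protocol *MIXL1* was at 1368 and 1549 CPM and then at 559 and 565 CPM, and the difference in its change was not called (-1.44 ± 0.56, adjusted p = 0.11).

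Several Nodal pathway genes were low in APS-PM and MPS-LM, which both had A-8301, and higher in DE(a)-DE(b), which had activin. The protocols also differ in their other additives and in the first day, and the part of A-8301 or activin was not tested. Of 31 tested members the change was lower in the paraxial than in the endoderm protocol for 15 and higher for 1, and lower than in the lateral protocol for 7 and higher for 4. *NODAL* was at 356 and 288 CPM in DE(a) and at 229 and 182 CPM in DE(a)-DE(b) (interaction -8.32 ± 0.62, adjusted p = 7.46e-09), and at 117 and 144 CPM in MPS and 0.233 and 0.759 CPM in MPS-LM (-1.07 ± 0.82, adjusted p = 0.554). *PMEPA1* was at 122 and 116 CPM and then at 131 and 143 CPM in the endoderm protocol (-5.29 ± 0.30, adjusted p = 1.56e-10) and at 94.3 and 101 CPM and then at 4.77 and 5.03 CPM in the lateral protocol (-0.84 ± 0.30, adjusted p = 0.0829). *LEFTY1* rose in the endoderm protocol from 25.2 and 19.1 CPM to 1137 and 1152 CPM (-11.01 ± 0.55, adjusted p = 1.08e-10). *SMAD7* also differed between the mesoderm protocols, at 95 and 102 CPM in MPS and 89.7 and 94.2 CPM in MPS-LM (-4.15 ± 0.29, adjusted p = 3.22e-09). *ID1* likewise was at 129 and 134 CPM and then at 85.9 and 108 CPM in the lateral protocol (-2.91 ± 0.67, adjusted p = 0.00514).

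Wnt targets changed differently in the paraxial and the lateral second day. *AXIN2* was at 402 and 519 CPM in MPS and at 20.6 and 17.3 CPM in MPS-LM (interaction 4.01 ± 0.46, adjusted p = 2.53e-06), and at 135 and 180 CPM and then at 87 and 108 CPM in the endoderm protocol (0.15 ± 0.44, adjusted p = 0.895). *SP5* was at 310 and 376 CPM and then at 2.38 and 2.34 CPM in the lateral protocol (6.82 ± 0.47, adjusted p = 3.64e-09). *LEF1* went from 38.5 and 61.3 CPM to 1.49 and 1.1 CPM in the endoderm protocol (6.99 ± 0.49, adjusted p = 4.66e-09) and from 157 and 162 CPM to 382 and 327 CPM in the lateral protocol (0.53 ± 0.41, adjusted p = 0.558). Of 55 tested Wnt genes the change was higher than in the lateral protocol for 21 and lower for 11, and higher than in the endoderm protocol for 15 and lower for 12. The shares over all tested genes were 6.07% and 4.94% against the lateral protocol and 4.6% and 7.34% against the endoderm protocol. Of 41 FGF and ERK genes the change was higher than in the lateral protocol for 12 and lower for 8, and *IL17RD*, a target and inhibitor of FGF signaling, was at 558 and 520 CPM in MPS and 29.8 and 25.1 CPM in MPS-LM (4.04 ± 0.32, adjusted p = 1.55e-08).

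**Figure D5:**
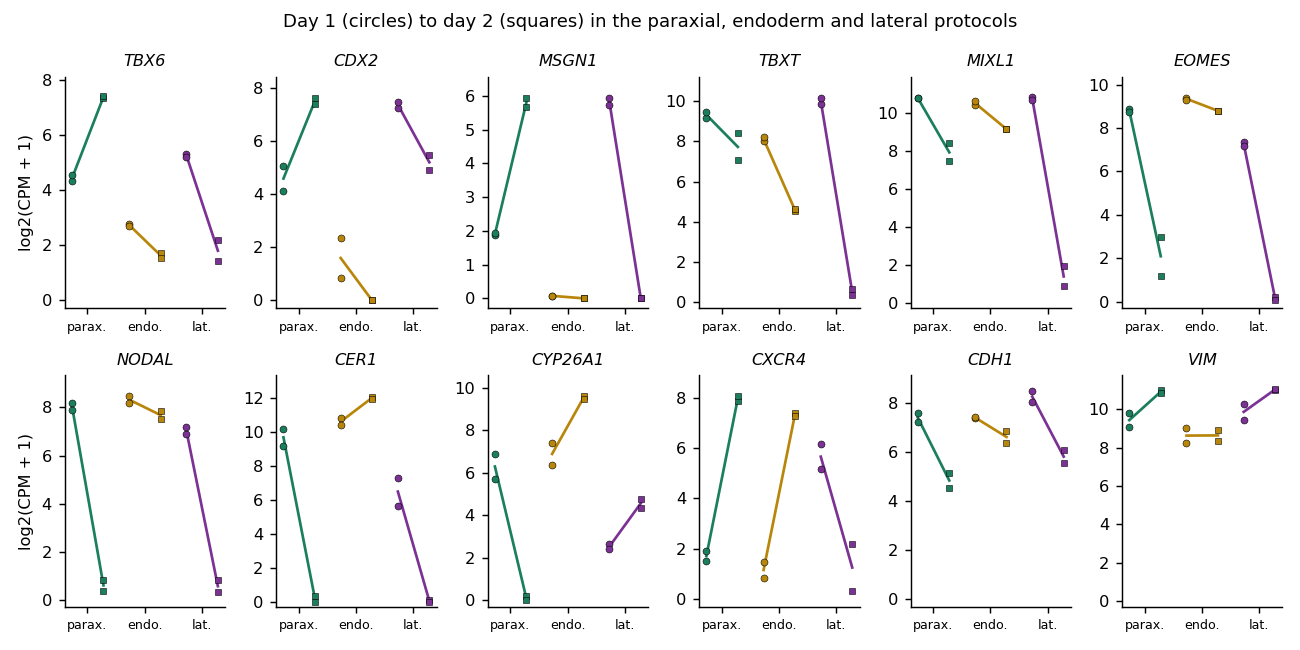
Level of 12 genes as log2(CPM + 1) in the 2 day 1 libraries (circles) and the 2 day 2 libraries (squares) of the paraxial (green), endoderm (ochre) and lateral (purple) protocols, with lines between the means. TBX6, CDX2 and MSGN1 rise in the paraxial protocol alone of the 3, NODAL ends near 0 in the paraxial and lateral protocols, and CDH1 ends lower than it began in all 3.

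Cadherin genes and *CXCR4* were compared in the same way. *CDH1* went from 169 and 172 CPM to 116 and 83.4 CPM in the endoderm protocol (interaction -1.83 ± 0.37, adjusted p = 0.00152) and from 264 and 362 CPM to 46.3 and 67.4 CPM in the lateral protocol (-0.22 ± 0.37, adjusted p = 0.861). *CDH2* went from 425 and 455 CPM to 816 and 802 CPM in the endoderm protocol (-1.06 ± 0.21, adjusted p = 0.00125) and from 578 and 526 CPM to 137 and 188 CPM in the lateral protocol (1.51 ± 0.21, adjusted p = 2.28e-05). The change in *CDH2* in the paraxial protocol thus lay between those of the other protocols. *CXCR4* rose in the endoderm protocol too, from 1.76 and 0.805 CPM to 168 and 154 CPM (-0.24 ± 0.90, adjusted p = 0.926), and fell in the lateral one from 69.4 and 35 CPM to 0.237 and 3.61 CPM (11.34 ± 0.94, adjusted p = 2.24e-08). Of 42 epithelial junction genes the change was lower in the paraxial protocol for 18 and higher for 1 against the endoderm protocol, and lower for 8 and higher for 6 against the lateral protocol.

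HOX genes and retinoic acid genes were compared as well. Of 37 tested HOX genes the change was higher than in the lateral protocol for 15 and lower for 1, and higher than in the endoderm protocol for 8 by edgeR and for 18 by DESeq2. Of 24 retinoic acid genes the change was higher for 5 and lower for 4 against the endoderm protocol, and higher for 6 and lower for 6 against the lateral protocol. *HOXB1* was at 15.9 and 10.5 CPM and then at 2.79 and 1.43 CPM in the lateral protocol (interaction 9.52 ± 0.76, adjusted p = 2.19e-08). *ALDH1A2* was at 50.8 and 21.7 CPM in MPS and at 2.98 and 2.09 CPM in MPS-LM (11.97 ± 0.79, adjusted p = 1.21e-09). Both genes were thus on in MPS and lower in MPS-LM, while they rose from APS to APS-PM. *CYP26A1* rose in both other protocols, from 168 and 82.4 CPM to 774 and 710 CPM in the endoderm protocol (-12.74 ± 1.13, adjusted p = 8.8e-08) and from 5.28 and 4.32 CPM to 19.5 and 26.5 CPM in the lateral protocol (-12.49 ± 1.16, adjusted p = 1.16e-07), where both sizes rest on 3 counts in the APS-PM libraries.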

How the data were processed

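The authors sequenced RNA from ESI017 cells and deposited 2 tables of estimated counts per gene, with replicate 1 of every condition in one and replicate 2 in the other, made with Salmon 1.10.2 and R 4.4.2 per the submitters' processing notes. Salmon was run in quasi-mapping mode on a GRCh38 transcriptome, with corrections for sequence and GC bias, on stranded paired-end poly(A) libraries, and transcripts were summed to genes. The estimates were rounded for the tests, and CPM, counts scaled to 1000000, use each library's total. Genes were filtered with filterByExpr and tested in edgeR 4.0.16 (R 4.3.3) by the quasi-likelihood test, with TMM scaling and 1 mean per condition over all 34 libraries, so that all 17 conditions share an estimate of the spread. Interaction terms compared the second day between protocols. Adjusted p-values are Benjamini-Hochberg, called at 0.05. Named genes were members of 27 gene lists, the 10 called genes with the largest rise and the largest fall (mean of at least 10 CPM in a group, no overlap), 5 each way per interaction and the genes the study plots. The members and lists were chosen with earlier results of these data known. A group at 0 was given 3 counts per library, and ratios with at most 10 counts per library carry 95% exact binomial intervals, all for counting error only. Where a symbol has several identifiers, the one in GENCODE release 44 with the highest level was used unless summed values are given. Alternatives were RLE scaling, no filter, a replicate block, the 4 libraries compared alone (8 for an interaction), a 2-fold threshold, DESeq2 1.42.0, each library left out and, chosen after seeing the data, identifiers summed per symbol. A few of the named genes are not reported here. The test script was tested on simulated data. Promoters and their motifs are from RefSeq, GRCh38.p14.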

Additional observations from a re-analysis of the deposited data

Results flagged for a closer look

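The largest differences of each interaction, up to 5 in each direction, are given here, since the second day changed these genes differently in the paraxial and another protocol by edgeR's test of the difference. Each is the log2 change from APS to APS-PM minus that in the other protocol. Most include a group at or near 0 counts, so their sizes depend on the prior count. CER1 (-13.99), MYCT1 (-13.75), CYP26A1 (-12.74), BHLHE22 (-12.57) and AC069528.1 (-11.99) were lower against the endoderm protocol. MYCT1 was at 30.4 and 32.2 CPM and then at 0 in the paraxial protocol, and at 27.8 and 41.4 CPM and then at 91.4 and 109 CPM in the endoderm protocol. BHLHE22 was at 9.3 and 9.25 CPM and then at 0, against 3.8 and 4.94 CPM and then 15.5 and 21.9 CPM.

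BMP3 (12.17), COL3A1 (12.08), CDX2 (11.43) and ALDH1A2 (9.37) were higher against the endoderm protocol. CDX2 was at 0.778 and 4.13 CPM in DE(a) and at 0 in DE(a)-DE(b). Without 1 library, calls were lost for BMP3 (without APS replicate 2, adjusted p = 0.0557, and DE(a) replicate 2, adjusted p = 1), COL3A1 (without DE(a) replicate 1, adjusted p = 0.248) and ALDH1A2 (without DE(a) replicate 1, adjusted p = 0.163, and DE(a) replicate 2, adjusted p = 0.0616). The call of AC069528.1 was lost without APS replicate 1 (adjusted p = 1) and with DESeq2 (adjusted p = 0.53).

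MSGN1 (17.39), the second identifier of DLL1 (16.88), HOXD1 (14.53), TAC1 (13.83) and KRT74 (13.76) were higher against the lateral protocol. TAC1 was at 8.89 and 2.24 CPM and then at 48.1 and 72.7 CPM in the paraxial protocol, and at 13.4 and 4.23 CPM in MPS and 0 in MPS-LM. HOXD1 was at 5.85 and 15.7 CPM in MPS and at 0 in MPS-LM. DLL1 was at 18.6 and 0 CPM in MPS by this identifier, and its call was lost without MPS replicate 1 (adjusted p = 1), APS replicate 1 (0.068), APS replicate 2 (0.0708), MPS-LM replicate 1 (0.0751) or MPS-LM replicate 2 (0.0537).

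LUM (-15.16), SLA (-13.48), MAB21L2 (-13.35), CYP26A1 (-12.49) and P2RY6 (-11.93) were lower against the lateral protocol. LUM, a proteoglycan gene, was at 0.304 and 0 CPM in MPS and at 341 and 190 CPM in MPS-LM, and at 0.237 and 0.0458 CPM in APS and 0 in APS-PM. P2RY6 was at 0 in MPS and at 88.5 and 77.4 CPM in MPS-LM. LUM was not called without APS replicate 1 (adjusted p = 0.311), nor was P2RY6 (0.0793).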

How the results depend on the processing

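With 2 libraries a group the calls rest on the spread shared by all conditions. With only the libraries compared in the fit, 2682 genes were called (1302 higher and 1380 lower) in place of 4492, and 1346 against the endoderm protocol (463 higher) in place of 2137. With a change of at least 2-fold required, which is a stricter test, 1152 were called (559 higher and 593 lower), 753 against the endoderm protocol (273 and 480) and 912 against the lateral protocol (527 and 385). Without 1 library at a time, where the lone sample of a group is assumed to vary like the other groups, 2975 to 3410 were called (higher 1450 to 1671, lower 1525 to 1739), the lowest without APS-PM replicate 2. The ranges were 1512 to 2220 against the endoderm protocol (higher 536 to 946, lower 954 to 1274, with 536 without DE(a)-DE(b) replicate 2) and 1473 to 1755 against the lateral protocol (higher 814 to 988, lower 652 to 771). With RLE scaling 4476 genes were called, with no filter 4470, with DESeq2 4962 and with identifiers summed 4644. Of the 4492 calls, 99.3% were made again with RLE, 98.8% with DESeq2, 82.3% with no filter, 57.4% with only the libraries compared and 63.5% to 71.8% without 1 library, and 0 changed sign in any of these fits. FOXA2, not called (0.59), was at -1.64 without APS-PM replicate 1 and at 1.46 without APS-PM replicate 2. Beyond fewer samples or a stricter test, the cause was not tested.

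The replicate numbers are shared by all groups and each number has its own deposited table, but the labels tie them to no day or culture. With a replicate block 5335 genes were called. The deviations of same-numbered APS and APS-PM libraries had a correlation of 0.388. Over 136 pairs of conditions the median was 0.162 (-0.196 to 0.569), with 96 above 0.1, so that not every pair deviated together.

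Genes under about 0.14 CPM (3 counts) could not be measured at this depth.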

Other observations

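Growth and metabolic genes changed in part. MYC, a driver of growth, fell from 93.2 and 86.9 CPM in APS to 7.65 and 7.54 CPM in APS-PM (log2 fold change -3.67 ± 0.40, edgeR adjusted p = 6.03e-07), while its relative MYCN rose from 21.8 and 18.4 CPM to 64.2 and 37.5 CPM (1.23, adjusted p = 0.00104). Of 42 tested cell cycle genes 9 were called higher and 9 lower, with a median of 0.08. The cyclin CCND1 fell from 498 and 648 CPM to 287 and 279 CPM and the kinase CDK6 rose from 139 and 174 CPM to 312 and 319 CPM. The CDK inhibitor CDKN2B, a known target of TGF-beta signals, fell from 16.7 and 13.6 CPM to 1.05 and 0.725 CPM (-4.19). Of 32 glycolysis and hypoxia genes 10 were called lower and 3 higher, with a median of -0.2. The glucose transporter SLC2A3 fell from 4579 and 4081 CPM to 886 and 517 CPM (-2.73, adjusted p = 4.3e-07), and the lactate exporter SLC16A3 rose from 8.46 and 7.4 CPM to 79.9 and 73.5 CPM (3.17, adjusted p = 1.22e-07). GAPDH, at 3266 and 2526 CPM and then at 2965 and 2294 CPM, was not called. The count of glycolysis genes called lower was 5 without APS replicate 1 and 4 without APS-PM replicate 2. Of 27 cholesterol synthesis genes 2 were called lower and the others were not called, with a median of -0.06.

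Of 26 p53 and stress response genes 9 were called higher and 2 lower, with a median of 0.12, but 4 were called higher without APS-PM replicate 1. The 2 called lower were the stress genes ATF3 and CHAC1. TP53INP1 rose from 9.47 and 15.1 CPM to 31.7 and 32.5 CPM (1.28, adjusted p = 1.95e-05) and BAX from 82.8 and 80.3 CPM to 144 and 130 CPM (0.64), while MDM2, at 130 and 138 CPM and then at 122 and 93.9 CPM, was not called. Of 44 Eph, ephrin and guidance genes 11 were called lower and 9 higher, with a median of 0.01, and 7 were called lower without APS-PM replicate 2. The receptor EPHA1 fell from 90.6 and 113 CPM to 22.1 and 23.8 CPM (-2.25, adjusted p = 2.48e-07) and EPHA2 from 359 and 372 CPM to 129 and 146 CPM (-1.51). The netrin receptor UNC5C rose from 22.1 and 18.9 CPM to 101 and 82.8 CPM (2.06, adjusted p = 0.00265) and the semaphorin receptor PLXNA2 from 158 and 141 CPM to 459 and 560 CPM (1.67).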
